A study of Homo sapiens with 24 samples.

Results

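The peak positions of a MYC-tag ChIP-seq experiment were compared between osimertinib-resistant and parental HCC827 cells that carried tagged METTL7A. Every peak of the resistant list (3165) and of the parental list (2271) was taken, 5436 of the 13347 peaks in the 8 peak lists of the series. A parental peak that overlapped a resistant peak by at least 1 bp was called kept and any other lost, and a resistant peak without a parental overlap was called gained. HCC827 is a human lung adenocarcinoma cell line with mutated and amplified EGFR. Both groups had the genotype METTL7A-MYC-tag-FLAG Overexpression. The parental line (HCC827) was untreated, and the resistant line (HCC827-OR) was grown in 1 µM osimertinib. The other 6 lists came from wild-type cells (MYC-tag and IgG) and from METTL7A cells (IgG) of both lines. Their resistant samples were grown in 1 µM osimertinib too. Each list joined 2 replicates, so 4 of the 24 samples (12 groups) stand behind the comparison. Resistance, drug and line therefore cannot be told apart, and the promoter driving the transgene and the number of clones are not stated in the labels. The METTL7A level of these cells was not measured here, and peak lists do not show how deeply a library was sequenced.

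METTL7A, also named TMT1A, is a membrane-associated methyltransferase-like protein. The MYC tag is a stretch of the MYC protein, so an antibody to it can also bind MYC itself, a transcription factor that recognises the E-box CACGTG. EGFR is the receptor tyrosine kinase that drives this tumour line, osimertinib inhibits its mutant forms, and MET, another receptor kinase, is amplified in some tumours that escape such drugs. ChIP-seq peaks are stretches of DNA recovered more often than their surroundings, whether through the antibody's target or through background. Peak height is the lower of the 2 replicates' −log10 p, as deposited by the authors. Heights from separate lists have no common scale, so values of a pair set side by side describe the deposited numbers and show no change in binding. Positions are compared by rank percentile within each list, where 100 is the highest peak.

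Of the genes in the fixed lists and of those added later, 7 had a peak across their annotated start in either list, and the promoters of 4 are printed because they stood for the kept, lost and gained classes. CDK4, a cell-cycle kinase gene, and its neighbour TSPAN31, a tetraspanin gene, had start peaks in both lists. CHCHD2, a mitochondrial and nuclear regulator gene, had a start peak in the parental list alone, and EMC9, a gene of the endoplasmic reticulum membrane complex, in the resistant list alone. Each sequence is the 250 bases before the start on the gene's own strand, from RefSeq (GRCh38.p14). Capitals mark matches to CACGTG, to the GC-box motif GGGCGG or to the CCAAT box on either strand. Read from the opposite strand, the GC box appears as CCGCCC and the last motif as ATTGG. The windows are chr12:57752311-57752560 (minus strand) for CDK4, chr12:57744789-57745038 (plus) for TSPAN31, chr7:56106477-56106726 (minus) for CHCHD2 and chr14:24141592-24141841 (minus) for EMC9.
CDK4 promoter: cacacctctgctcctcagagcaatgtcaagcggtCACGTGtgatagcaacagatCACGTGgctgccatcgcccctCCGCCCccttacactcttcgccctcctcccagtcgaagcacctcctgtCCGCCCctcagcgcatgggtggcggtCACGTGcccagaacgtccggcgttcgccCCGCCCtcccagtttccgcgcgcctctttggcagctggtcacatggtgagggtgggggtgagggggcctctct
TSPAN31 promoter: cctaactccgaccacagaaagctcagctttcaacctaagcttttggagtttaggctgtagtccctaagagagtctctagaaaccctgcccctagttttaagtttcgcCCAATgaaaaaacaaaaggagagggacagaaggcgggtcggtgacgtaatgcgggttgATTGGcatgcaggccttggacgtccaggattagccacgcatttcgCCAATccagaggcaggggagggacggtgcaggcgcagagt
CHCHD2 promoter: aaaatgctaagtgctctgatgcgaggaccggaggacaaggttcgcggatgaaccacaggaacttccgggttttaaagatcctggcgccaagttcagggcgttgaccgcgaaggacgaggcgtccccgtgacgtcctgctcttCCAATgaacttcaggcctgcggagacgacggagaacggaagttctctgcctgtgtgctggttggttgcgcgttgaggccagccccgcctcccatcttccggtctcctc
EMC9 promoter: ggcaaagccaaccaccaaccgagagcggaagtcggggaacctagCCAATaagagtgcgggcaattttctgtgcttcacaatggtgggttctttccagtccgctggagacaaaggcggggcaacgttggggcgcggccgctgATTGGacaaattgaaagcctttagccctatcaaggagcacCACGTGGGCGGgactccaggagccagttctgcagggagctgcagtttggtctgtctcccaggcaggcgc

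The CDK4 window held 3 matches to CACGTG and 3 to GGGCGG, and the TSPAN31 window held 3 to CCAAT. CHCHD2 had 1 match to CCAAT. EMC9 had 2 matches to CCAAT and 1 to CACGTG, which shared bases with its 1 match to GGGCGG. Among 27305 promoter windows of the same length, 6.49% held CACGTG, 42.3% held GGGCGG and 33.0% held CCAAT. These matches describe the letters of the windows and are not binding sites.

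Of the 2271 parental positions, 451 were kept (19.9%, exact Clopper-Pearson 95% interval 18.2 to 21.6) and 1820 were lost. Of the 3165 resistant positions, 2700 were gained (85.3%, 84 to 86.5) and 465 were kept. The kept peaks formed 476 overlapping pairs, since 24 parental peaks met more than 1 resistant peak and 11 resistant peaks met more than 1 parental peak. The intervals reflect counting error alone, since peaks side by side are not independent of each other. With 1 list per state there is no replicate check of the difference and no test was made. In the matching lists of wild-type cells, the share of parental positions kept was 18.7% (16.3 to 21.3, 188 of 1005) for MYC-tag and 15% (13.2 to 16.9, 216 of 1444) for the IgG isotype control. The shares gained were 93.4% and 91.5%, in resistant lists that were 2.75 and 1.75 times as long as the parental ones, against 1.39 times for METTL7A MYC-tag. The METTL7A IgG lists held 70 and 96 peaks, with 2 positions kept (2.86%, 0.348 to 9.94) and 97.9% gained. The interval of the METTL7A MYC-tag kept share overlapped that of wild-type MYC-tag. It lay above the intervals of wild-type IgG and METTL7A IgG, whose resistant lists were shorter (2529 and 96 peaks, against 3165). A shorter list offers fewer peaks to meet, and the part of list length was not tested.

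Kept positions differed in how far they overlapped. The median distance between the summits of a pair was 190.5 bp, and the median overlap was 625 bp, with 9 pairs under 100 bp and a smallest overlap of 2 bp. Lost nuclear positions lay at a median of 44.0 kb from the nearest resistant peak, and gained positions lay at a median of 76.4 kb from the nearest parental peak. Within 1000 bp of a peak of the other list lay 95 lost and 96 gained positions. By bins of 1 Mb, 904 held a gained peak, 744 a lost peak and 479 both. Of the 2700 gained peaks, 2094 lay in a bin that held a parental peak. Both lists crowd at chromosome ends, and the share that such crowding alone would give was not computed.

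Most tall peaks were kept and most low peaks were not. Among parental peaks under a height of 4, 77 of 670 were kept (11.5%, 9.18 to 14.2), and from 4 to 5 the share was 11.3% (86 of 761). It was 22.6% from 5 to 7 (128 of 567) and 37.9% from 7 to 9 (53 of 140). From 9 to 15 it was 81.3% (72.0 to 88.5, 78 of 96). Of 37 parental peaks of 15 or more, 29 were kept, and 5 of the 8 lost ones lay on mitochondrial DNA, so that 29 of 32 nuclear peaks were kept (90.6%, 74.98 to 98.0). Resistant peaks gave the same order, with 83 of 1119 kept under a height of 4 (7.42%, 5.95 to 9.11), 63 of 70 from 9 to 15 (90%, 80.5 to 95.9) and all 28 of 15 or more (lower limit 87.7%). The intervals of the classes under 5 and of 9 or more do not overlap in either list.

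Rank within a list is taken from the same heights, so the rank classes below restate this result and are no separate support. In the parental list the 567 highest peaks kept 40.04% and the next 3 rank classes of 568 kept 15.7%, 12.3% and 11.4%, and the 4 classes of 791 or 792 in the resistant list kept 32.5%, 9.99%, 8.09% and 8.21%. Of the 20, 50 and 100 highest parental peaks 14, 38 and 81 were kept, and of the resistant ones 20, 49 and 93. Peaks at a global irreproducible discovery rate (IDR) of 0.05 or less, called reproducible below, met a peak of any height in the other list in 117 of 145 parental cases (80.7%, 73.3 to 86.8) and 95 of 104 resistant ones (91.4%, 84.2 to 96.0). With the lists cut to reproducible peaks on both sides, 43.4% of all parental positions and 44.2% of those of 9 or more were kept, and 34.6% of resistant positions were gained. Of the 145 reproducible parental peaks 129 had a height of 9 or more. Kept peaks were also wider than the others. The median width was 877 bp for kept and 663.5 bp for lost parental peaks, and 822 bp for kept and 666.5 bp for gained resistant peaks, and the part of width in the overlap was not tested. When each peak of a pair had to cover 0.5 of the other, 72.2% of parental peaks of 9 or more and 6.27% of those under 4 were kept.

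**Figure D1:**
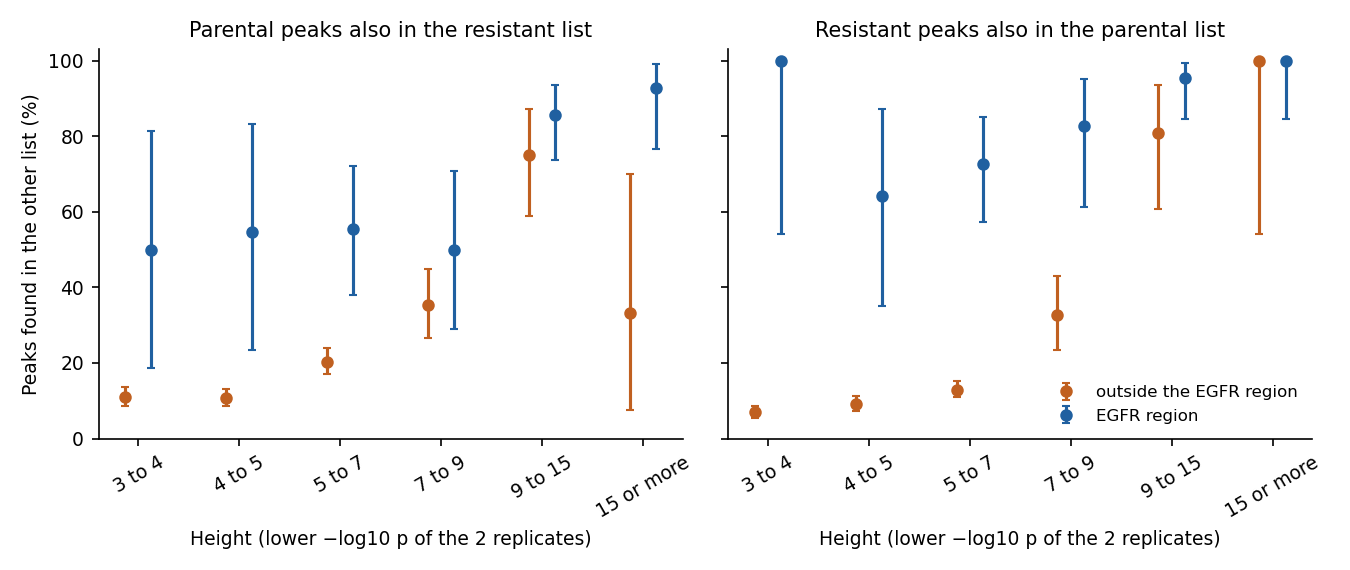
Share of parental peaks found in the resistant list (left) and of resistant peaks found in the parental list (right), in percent, by class of height (lower −log10 p of the 2 replicates). Points are shares and bars are exact 95% intervals, for peaks inside and outside 54 to 56 Mb of chromosome 7 (EGFR region). Outside it the parental share climbed from 10.9% under a height of 4 to 75% between 9 and 15, and the highest class there holds 9 peaks, 5 of them mitochondrial.

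The neighbourhood of EGFR kept most of its positions. At 54 to 56 Mb of chromosome 7, 117 of 165 parental peaks were kept (70.9%, 63.3 to 77.7), and 23 of 153 resistant peaks were gained (15%, 9.77 to 21.7). Outside this region 334 of 2106 parental peaks were kept (15.9%, 14.3 to 17.5). The wild-type parental lists showed the same split. In the region 96 of 128 MYC-tag (75%, 66.6 to 82.2) and 45 of 60 IgG positions (75%, 62.1 to 85.3) were kept. Outside it the shares were 10.5% (8.54 to 12.7) and 12.4% (10.7 to 14.2), with intervals below that of METTL7A MYC-tag. The part of list length in these shares was not tested. The resistant lists differed. Of their peaks in the region, 130 of 153 were kept for METTL7A MYC-tag (84.97%, 78.3 to 90.2). For wild-type MYC-tag 94 of 139 were kept (67.6%, 59.2 to 75.3). For wild-type IgG 44 of 106 were kept (41.5%, 32.02 to 51.5), so most of these were gained. The parental wild-type IgG list offered only 60 peaks to meet there, and the part of these counts was not tested. Low parental peaks of METTL7A MYC-tag in the region were also kept. Under a height of 5, 11 of 21 were kept (52.4%, 29.8 to 74.3), against 10.8% (9.21 to 12.5) of such peaks elsewhere. Height also mattered outside chromosome 7 and mitochondrial DNA, where 30 of 40 parental peaks (75%, 58.8 to 87.3) and 25 of 29 resistant peaks (86.2%, 68.3 to 96.1) of 9 or more were kept.

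The wild-type MYC-tag lists kept their tall parental peaks as well, in 25 of 27 cases of 9 or more (92.6%, 75.7 to 99.1), and wild-type IgG in 15 of 19 (78.9%, 54.4 to 93.9). The share was also counted from the resistant side. Of resistant peaks of 9 or more, 91 of 98 (92.9%, 85.8 to 97.1) were already in the parental list for METTL7A MYC-tag, 30 of 48 (62.5%, 47.3 to 76.0) for wild-type MYC-tag and 30 of 97 (30.9%, 21.9 to 41.1) for wild-type IgG. Outside the EGFR region these shares were 27 of 32 (84.4%), 8 of 23 (34.8%) and 11 of 70 (15.7%). A height of 9 need not be the same cut in each list, since heights have no common scale. The wild-type parental lists were also shorter, and the part of height scale or list length in this difference was not tested.

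EGFR itself, with 5 kb on either side, held 52 parental peaks, of which 44 were kept, and 52 resistant peaks, of which 3 were gained. Gene bounds here and below are GRCh37 positions entered by hand. The highest resistant peak lay in EGFR (7:55145228–55147646) at a −log10 p of 35.9 and 39.4 in the first and second replicate, and its parental partner had 18.4 and 34.8. At 7:55221527–55222282 the parental replicates gave 21.1 and 24.6 and the resistant ones 24.5 and 25.1. The largest fall in rank among kept peaks of 5 or more in both lists was also in EGFR (7:55192201–55194350), from 14.3 and 21.7 to 14.4 and 5.24. Of these deposited numbers only the second was lower, and which replicate fills which column is not stated. The 8 lost EGFR positions had heights from 5.02 to 19.2, and the 3 gained ones 4.58 to 6.15. The tallest lost position of the nuclear genome was among them (7:55181385–55181782, 19.2 and 20.5), 398 bp wide and 739 bp from a resistant peak.

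Genes next to EGFR followed it in part. VOPP1, which encodes a vesicular protein, kept 20 of 27 positions and had 1 gained, and its peak at 7:55540568–55545859 had replicate values of 19.5 and 22.7 in parental and 28.7 and 22.7 in resistant cells. LANCL2, a LanC-like protein gene, kept 5 of 9. Its peak at 7:55497485–55498185 had 27.2 and 17 in parental and 10.2 and 10.5 in resistant cells, with rank percentiles of 98.8 and 97.7. VSTM2A, an immunoglobulin-domain protein gene, kept 1 of 3. The CHCHD2 start peak (5.37 and 12.7) was lost, and no other list held it. SEC61G, SEPTIN14, ZNF713, PSPH, CCT6A and PHKG1 had no peak in either list. Over the 11 genes of this neighbourhood with positions at hand, 4 had a kept peak, 5 a lost peak and 4 a gained peak.

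Heights of kept pairs were related between the lists. Spearman's rho between the heights of a pair was 0.453 over all 476 pairs, 0.441 over the 132 pairs of the EGFR region and 0.25 over the 344 others, as a description of peaks that share libraries. The parental replicates were far apart at CDK4. Its start peak had 6.76 and 58.3 in the parental replicates (12:58144453–58146608) and 26.3 and 36.6 in the resistant ones (12:58145769–58146554), at rank percentiles of 86.8 and 99.97. The TSPAN31 start had 5.78 and 21.2 in parental and 5.67 and 13.2 in resistant cells.

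**Figure D2:**
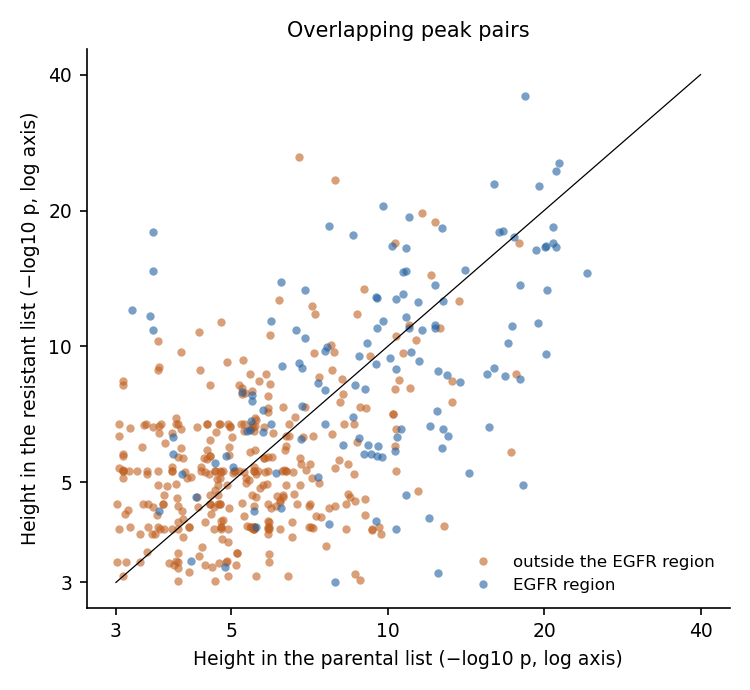
Height of each of the 476 overlapping pairs in the parental list (horizontal) and in the resistant list (vertical), as the lower −log10 p of the 2 replicates on log axes. The line marks equal values as a guide, since the lists have no common scale; pairs of the EGFR region (54 to 56 Mb of chromosome 7) reach the largest heights in both lists.

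On the long arm of chromosome 12 the share kept was high around CDK4, and the end of the arm held more peaks in the resistant list. Around CDK4, at 57 to 59 Mb, 25 of 32 parental peaks were kept (78.1%, 60.03 to 90.7), and 8 of 33 resistant peaks were gained. B4GALNT1, a ganglioside synthase gene, kept all 5 of its positions, and ARHGEF25, a guanine nucleotide exchange factor gene, 7 of 8. Between these genes the peak at 12:58012909–58016986 had parental values of 7.93 and 20.5 and resistant values of 23.4 and 32.3, and its rank percentile was 92.2 in the parental and 99.9 in the resistant list. AGAP2, a GTPase-activating protein gene, kept all 4, with 10.3 and 10.3 in parental cells, then 17 and 19.95 in the resistant state, at 12:58121131–58122090. TBK1, HMGA2 and MDM2, farther along the arm, had no peak in either list. Over the 8 genes of the list, 16 distinct parental positions were kept and 1 was lost, with none gained; neighbouring genes share some of these peaks. In the last 10 Mb of the arm the count went from 29 to 96 peaks, 89 of them gained, and 8 of the 29 were kept. The share gained (92.7%) was near that of all resistant peaks within 10 Mb of a chromosome end (92.05%). The share kept was 27.6% (12.7 to 47.2), against 13.1% of all parental peaks at such ends. The wild-type counts at this end went from 14 to 45 (MYC-tag) and 17 to 31 (IgG).

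By arm, 7p held the most peaks in both lists, 285 parental (12.6%, 11.2 to 14) and 272 resistant (8.59%, 7.64 to 9.63). It kept 147 positions (51.6%, 45.6 to 57.5). The share kept was as high on 6p, with 27 of 51 (52.9%, 38.5 to 67.1), and lower on 12q, with 45 of 117 (38.5%, 29.6 to 47.9). The short arm of chromosome 21 kept 8 of 12. On 12p 2 of 71 positions were kept (2.82%, 0.343 to 9.81) and on 3q 1 of 53. No position was kept on 8 arms, which together held 76 parental peaks, or on mitochondrial DNA.

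**Figure D3:**
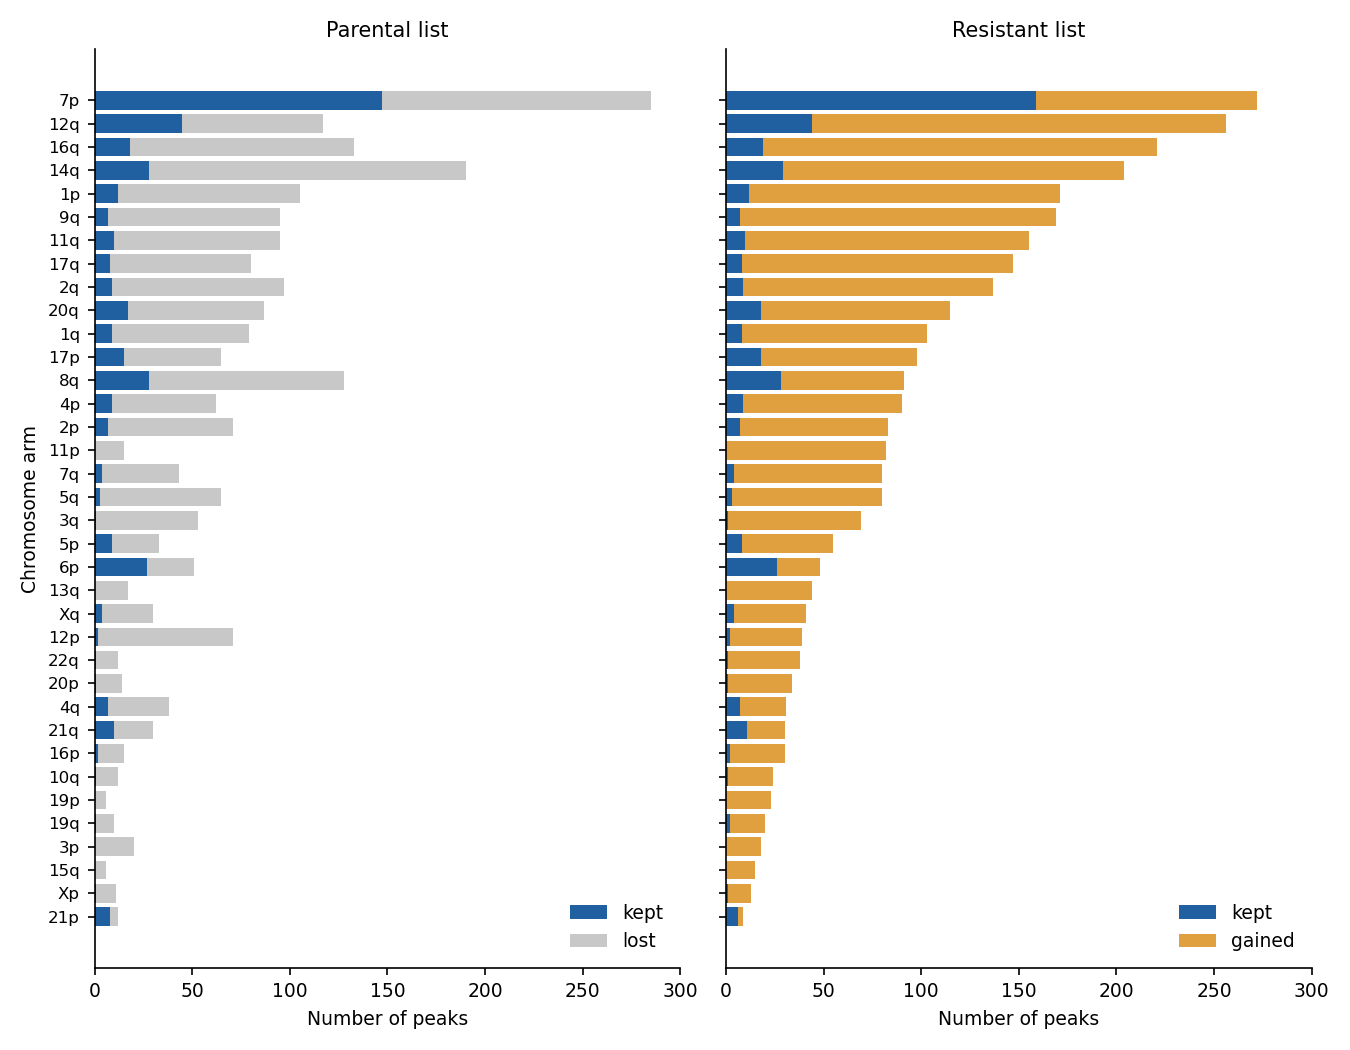
Number of parental peaks kept and lost (left) and of resistant peaks kept and gained (right) on each chromosome arm, sorted by the resistant count. On 7p most resistant peaks were kept (159 of 272), and 11p shows 82 resistant peaks with none kept.

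Arms were then compared by their share of each list, as the resistant share over the parental share with a 95% interval on the log scale (Katz). Of the 41 arms with a peak, 6 had an interval above 1 (11p, 19p, 22q, 13q, 12q and 17q) and 6 below it (12p, 8q, 4q, 6p, 7p and 14q). The ratio was 3.92 (2.27 to 6.78) on 11p, which went from 15 to 82 peaks, and 2.27 (1.19 to 4.34) on 22q, from 12 to 38. On 12q it was 1.57 (1.27 to 1.94), from 117 to 256. On 12p it was 0.394 (0.268 to 0.580), from 71 to 39, on 8q 0.510 (0.392 to 0.664), from 128 to 91, and on 7p 0.685 (0.585 to 0.801). The wild-type MYC-tag and IgG ratios were 5.54 and 1.68 on 11p, 1.17 and 1.93 on 12q, 0.726 and 0.601 on 12p, and 0.466 and 0.840 on 7p, each on the same side of 1 as METTL7A MYC-tag. Among reproducible METTL7A MYC-tag peaks the ratios crossed 1 on 7p (1.08, 92 parental and 71 resistant peaks) and 12q (0.896, 14 and 9 peaks). At a height of 5 or more the 12q ratio was 1.35, with an interval that includes 1 (0.990 to 1.84). The wild-type MYC-tag ratio on 11p rests on 4 parental peaks. On 22q the wild-type ratios were 0.934 and 0.840, on the other side. So were those on 13q, at 0.908 and 0.594 against 1.86 for METTL7A MYC-tag, and on 14q, at 1.305 and 1.09 against 0.770. On 17q, 19p, 4q and 6p the wild-type MYC-tag and IgG ratios lay on opposite sides of 1. On 8q both wild-type ratios were nearer 1, at 0.895 and 0.967. Over the 27 arms with at least 10 peaks in each of the 6 lists, Spearman's rho of the METTL7A MYC-tag ratio was 0.156 with the wild-type MYC-tag ratio and 0.176 with the IgG ratio, and 4 arms lay above 1 and 4 below 1 in all 3 comparisons.

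**Figure D4:**
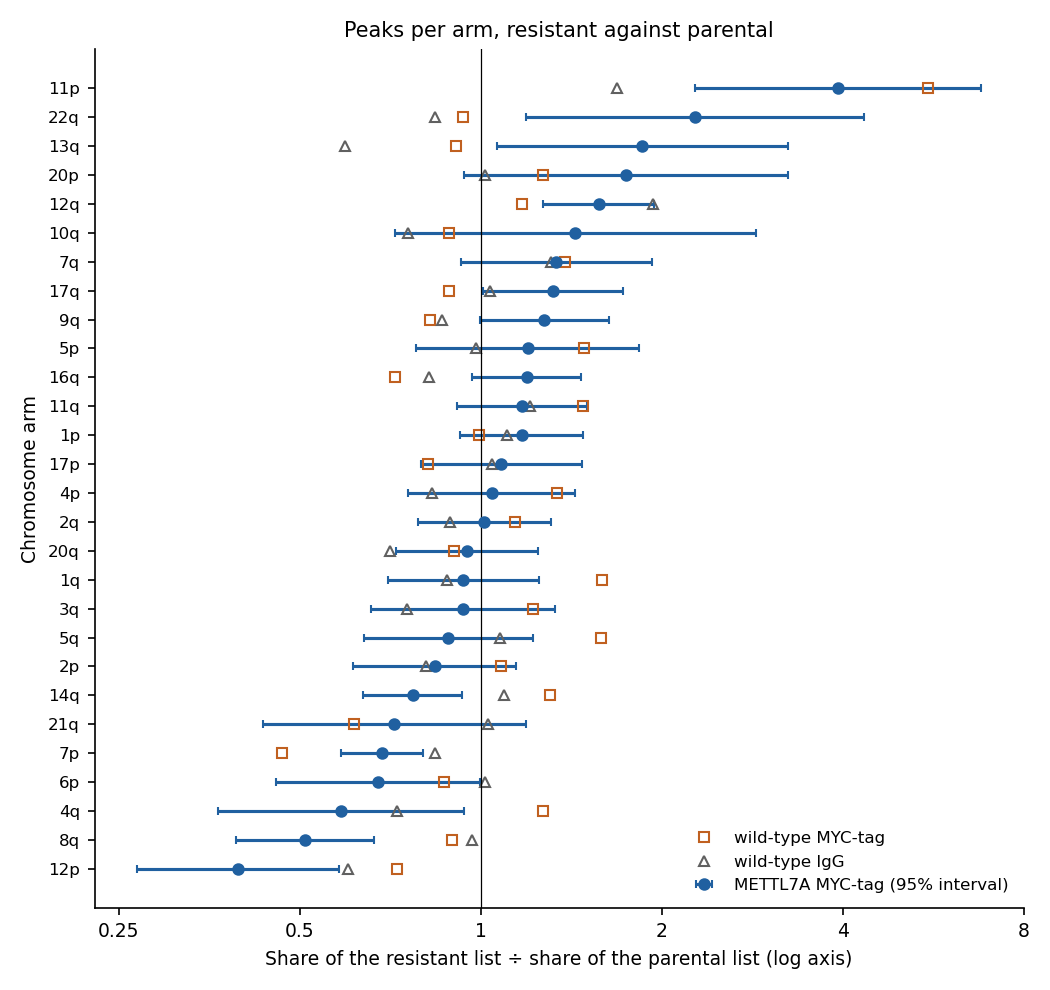
Share of the resistant list over share of the parental list on a log axis, for 11p and the 27 arms with at least 10 peaks in each of the 6 lists, for METTL7A MYC-tag (circles, bars are 95% intervals), wild-type MYC-tag (squares) and wild-type IgG (triangles). The METTL7A ratio runs from 0.394 on 12p to 3.92 on 11p, and on both arms all 3 markers lie on the same side of 1.

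The increase on 11p came mostly from a short stretch. At 2 to 4 Mb the list went from 2 to 52 peaks, all 52 gained. KCNQ1, a potassium channel gene within the imprinted domain of this arm, held 24 of them with heights up to 6.72, and 1 parental peak (5.09) that was lost. KCNQ1 was named after its values were seen. The wild-type lists also had more peaks in this stretch in the resistant state, from 1 to 17 (MYC-tag) and from 2 to 18 (IgG), 9 and 8 of them at KCNQ1 where the parental lists held 0. IGF2 and CDKN1C, growth-control genes of the same domain, held no peak in either METTL7A MYC-tag list.

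On the long arm of chromosome 7 the span from 85 to 120 Mb, around MET, went from 9 to 65 peaks, 63 of them gained. MET had 2 gained peaks, at 7:116363853–116364626 (7.21 and 7.04) and 7:116366607–116367904 (4.83 and 3.59). ST7, a suppressor of tumorigenicity gene beyond MET, had 6, with heights from 3.34 to 7.18. HGF, which encodes the MET ligand, and CDK6, TES, CAV2, CAV1, CAPZA2, WNT2 and CFTR had none in either list. The wild-type lists went from 3 to 68 (MYC-tag) and from 11 to 62 (IgG) in this span, so resistant lists without the tag, or without its antibody, held more peaks there too.

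On 6p the positions clustered at 11 to 12 Mb, where 26 of 42 parental peaks were kept (61.9%, 45.6 to 76.4) and 5 of 30 resistant peaks were gained. ADTRP, a fatty acid ester hydrolase gene, kept 13 of 17, with 17.9 and 21.3 in parental and 17 and 23.2 in resistant cells at 6:11736949–11739027. TMEM170B, a transmembrane protein gene, kept 2 of 3. On 8q MYC kept both of its peaks. The peak at its start (8:128747248–128748830) had 9.36 and 9.07 in parental and 7.97 and 7.29 in resistant cells, and the other (8:128749225–128751746) had 5.59 and 6.33, then 8.20 and 6.87. PVT1, a noncoding RNA gene beside MYC, and TERT, the telomerase gene, each lost their only peak (5.33 and 4.75). CCND1, the cyclin D1 gene, lost 1 (4.93) and gained 1 (6.72). Among other receptor kinase and bypass genes, ERBB2, ERBB3, AXL, FGFR1, IGF1R, NRAS, BRAF and PIK3CA had no peak in either list.

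The ends of chromosomes held more of the gained than of the lost or kept positions. Within 10 Mb of an end, 15.2% of the nuclear length, lay 44.2% of gained peaks (42.3 to 46.1), 36.3% of lost peaks (34.1 to 38.6) and 22.2% of kept parental peaks (18.4 to 26.3). The whole lists held 33.5% in parental and 41.0% in resistant cells, where the wild-type lists had 27.1% and 27.9% (MYC-tag) or 38.9% and 32.9% (IgG). Peaks between 7 and 9 at the ends were rarely kept, in 3 of 18 parental (16.7%, 3.58 to 41.4) and 2 of 30 resistant cases (6.67%, 0.818 to 22.1). Over all peaks of these heights the shares were 37.9% and 42.4%. Under a height of 5 the ends kept 11.6% of parental and 6.41% of resistant peaks, against 11.4% and 8.55% over all peaks. Of peaks of 9 or more, the ends kept 1 of 4 parental and all 4 resistant ones. Counts went from 83 to 143 in the last 10 Mb of 16q, from 62 to 115 in that of 9q and from 95 to 108 in that of 14q, with median heights between 4.36 and 4.77.

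The tallest lost positions were narrow. Lost nuclear peaks of 9 or more numbered 20, of which 19 were reproducible and 10 lay on 7p. Their median width was 550 bp (312 to 1210), against 1062 bp for the 107 kept ones. Outside 7p the tallest was in HFM1, a meiotic helicase gene (1:91852779–91853148), at 16.2 in the first and 115.3 in the second replicate, and both wild-type MYC-tag lists held a peak there. ADTRP lost 6:11730923–11731372 (13.6 and 14.9), which lay 1094 bp from a resistant peak. Mitochondrial DNA held 6 parental and 0 resistant METTL7A MYC-tag peaks. Their first replicate values ran from 9.19 to 108.8 and their second replicate values from 179.1 to 537.4, with every second value above its first. The position MT:1871–4158 met a peak of the resistant METTL7A IgG list, so a mitochondrial peak was present in resistant cells with the control antibody.

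Tall gained positions were few. Of 2700 gained peaks 7 reached 9, of which 6 were reproducible, 2 lay on 7p and 5 met none of the other 6 lists. The tallest lay in SNX16, a sorting nexin gene (8:82753863–82754405, 12.3 and 14.7), beside the annotated start. The next lay on 7q (7:112971420–112972238, 11.3 and 11.4), at a position where no gene of the lists was entered. IFRD1, a transcriptional coregulator gene also on 7q, gained 1 peak (7:112090127–112091543, 8.40 and 15.1). The gained EMC9 start peak (14:24610445–24611378) had 8.88 and 8.94. Of the other 6 lists it met the parental wild-type IgG list alone, so a peak at this position was present in parental cells with the control antibody. SNX16, IFRD1 and EMC9 were named after their values were seen.

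Most gained peaks carried values that recurred. The single height 5.31 stood at 289 of the 2700 gained peaks (10.7%), and 77.0% of gained peaks had a height shared by at least 10 peaks of the list, against 37.9% of kept resistant peaks. In the parental list 56.9% of lost and 24.8% of kept peaks did so. The kept classes were the more reproducible ones, with 117 of 451 kept parental peaks (25.9%, 22 to 30.3) but 28 of 1820 lost ones (1.54%, 1.03 to 2.22) at a global IDR of 0.05 or less. Among resistant peaks 95 of 465 kept (20.4%, 16.9 to 24.4) and 9 of 2700 gained ones (0.333%, 0.153 to 0.632) were. Most reproducible peaks had a height of 9 or more, 129 of 145 parental and 95 of 104 resistant ones. The IDR and the height both rest on the 2 replicates, so this split in large part repeats the one by height.

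The other 6 lists, which had no part in defining the classes, separated kept positions from the rest. Kept parental positions met the parental wild-type MYC-tag list in 23.7% of cases (19.9 to 27.9), the resistant one in 31.7% (27.4 to 36.2), and the parental and resistant wild-type IgG lists in 15.5% (12.3 to 19.2) and 23.1% (19.3 to 27.2). Lost positions did so in 2.36%, 5.16%, 2.42% and 3.19%, and gained positions in 1.52%, 4%, 2.19% and 2.85%. In none of the 6 lists lay 238 kept parental positions (52.8%, 48.0 to 57.5), 1625 lost ones (89.3%, 87.8 to 90.7) and 2442 gained ones (90.4%, 89.3 to 91.5). The split held outside the EGFR region, where 86 of 334 kept (25.7%, 21.1 to 30.8) and 102 of 1772 lost positions (5.76%, 4.72 to 6.94) met either wild-type MYC-tag list. It held within low peaks too, since under a height of 5 the shares were 29 of 163 kept (17.8%, 12.3 to 24.5) and 66 of 1268 lost (5.21%, 4.05 to 6.58). Gained positions met the resistant wild-type MYC-tag list in 108 cases and the parental one in 41, and lost positions also met the resistant list more often than the parental one, in 94 and 43 cases. The resistant wild-type list was the longer of the pair.

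**Figure D5:**
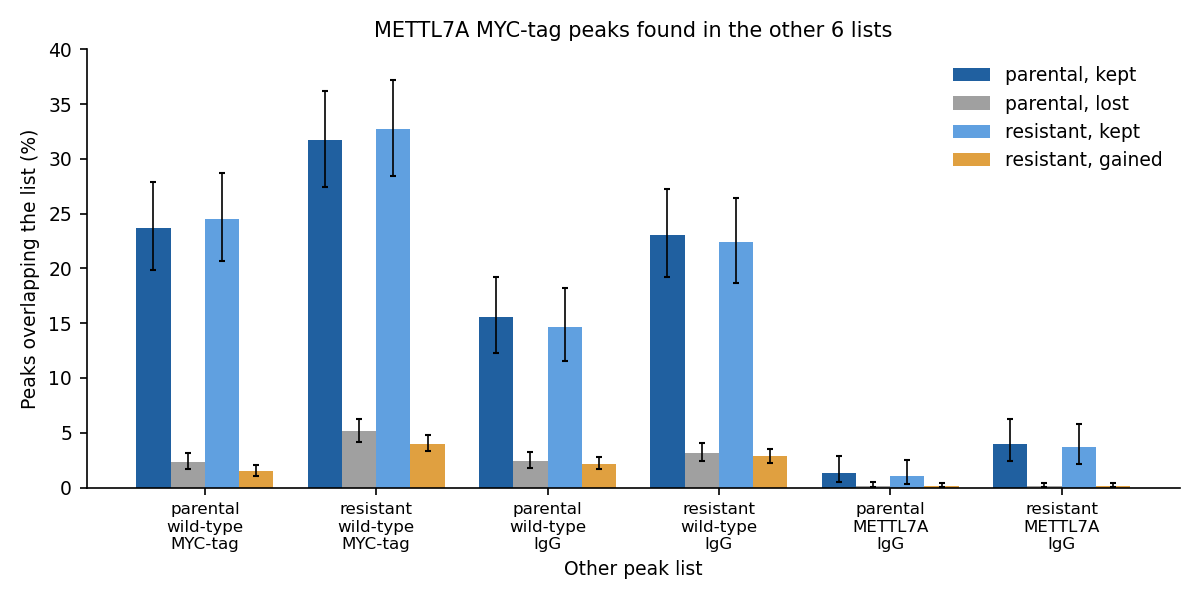
Share of kept and lost parental peaks and of kept and gained resistant peaks that overlapped each of the other 6 lists, in percent; bars start at 0 and error bars are exact 95% intervals. Kept peaks of both lists stand between 14.6% and 32.7% against the 4 wild-type lists, and lost and gained peaks at 5.16% or less.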

How the data were processed

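MYC-tag ChIP-seq of parental and resistant METTL7A cells was analysed from 2 of the 8 deposited peak lists, with the other 6 as side values. Per the labels, ChIP-IT Express chromatin was sheared on a Covaris sonicator, EpiCypher CUT&RUN kit libraries were made from it, and an Illumina NovaSeq read them. Tools in the submitters' processing notes are MACS2 2.2.7.1 and Bowtie2 2.4.2, with bedtools 2.30, SAMtools 1.16, Trimmomatic, deepTools 3.5.1 and FastQC, and the build is GRCh37, without roles. Which library served as control, any duplicate filter and the IDR version: not given in the sources used here. Each list has 20 columns in the IDR layout. The −log10 p-values of the 2 replicates (columns 15 and 19) and the −log10 global IDR were deposited by the authors for replicates already matched, so no replicate has a list of its own, and nothing says which replicate fills which columns.

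Overlaps, arms, exact intervals and ratios were computed in Python 3.11.15 with pandas 2.3.3, NumPy 2.4.6 and SciPy 1.17.1, with overlap code tested on simulated peaks. Peaks were taken as deposited, with no further filter. Arms were split at the GRCh37 centromeres, and arm and gene bounds were entered by hand; genes were checked against the RefSeq GRCh38.p14 table for chromosome and for length within 0.5 to 2 times. Positions with no peak mean no peak in the list, not the absence of binding. Members and lists were chosen with earlier results of these data known. Named were the 8 highest kept, lost and gained nuclear positions, from which the text takes examples, the mitochondrial peaks as a group, the kept positions whose rank moved most, and peaks within 5 kb of listed genes. GBAS, MRPS17 and SUMF2 were not used because no position was at hand. Alternatives changed the overlap rule, the height or IDR threshold, the replicate column and the chromosomes used. Some genes of the lists are not reported here.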

Additional observations from a re-analysis of the deposited data

How the results depend on the processing

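Over 9 alternatives 71 values were recomputed: 34 stayed within the main interval, 35 moved and 2 reversed. The main values were 19.9% of parental positions kept, 85.3% of resistant positions gained, and 80.5% of parental and 92.9% of resistant peaks of height 9 or more kept. In that order they were 43.4%, 34.6%, 44.2% and 67.4% with only peaks at a global IDR of 0.05 or less in both lists, and 24.8%, 82.4%, 69.9% and 84.7% with a height of 5 or more in both. Counting peaks of 5 or more against any peak gave 34.3% and 75.8% for the first pair. A reciprocal overlap of 0.5 gave 13.7%, 90.2%, 72.2% and 69.4%, with 6.27% and 4.56% kept under a height of 4. Peaks within 1000 bp gave 24.0% and 82.3%, with 15.7% and 10.3% kept under a height of 4. Taking height from the first replicate in the file and keeping only peaks of 5 or more in it gave 22%, 86.9%, 58.5% and 56.3%, and the same with the second gave 82.8%, 49.9% and 52.1% for the last 3; column and threshold changed together. Without chromosome 7 and mitochondrial DNA 15.5% were kept and 89.3% gained. At the IDR threshold 129 of 145 parental and 95 of 104 resistant peaks were of 9 or more, so that setting does not compare heights.

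The arm ratios reversed at a global IDR of 0.05 or less on 7p (1.08 against 0.685) and 12q (0.896 against 1.57), with 92 parental and 71 resistant peaks left on 7p and 14 and 9 on 12q; the cause was not tested. The 8q ratio was 0.279 there, from 5 parental peaks and 1 resistant peak. At a height of 5 or more the 11p ratio was 7.42 (2.28 to 24.1, from 3 parental peaks) and the 8q ratio 0.379, and the 12q ratio of 1.35 had an interval that includes 1 (0.990 to 1.84). The 12p ratio was 0.285 there and 0.266 with peaks of 5 or more in the second replicate. Ratios for 11p and 12p could not be computed at the IDR threshold, and arm ratios were not recomputed under other overlap rules.

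No paired analysis was possible because each list joins both replicates in 1 line per peak. For the same reason no replicate was left out, and the 2 height columns stood in for that. Depth is unknown, the lists have no common scale of height, and shares carry counting error only.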
